A study of Mus musculus with 16 samples.

Results

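Gene expression was compared between proximal and distal limb tendons of mice of the inbred strain C57BL/6J. The proximal tendons were the supraspinatus tendon of the shoulder (Supraspinatus, forelimb) and the patellar tendon of the knee (Patellar, hindlimb). The distal tendons were the forepaw flexor tendon (Flexor, forelimb) and the Achilles tendon of the heel (Achilles, hindlimb). Each tendon had 4 RNA-seq libraries, giving 8 proximal and 8 distal libraries of 16 in all, and every library of the series entered the comparison. No treatment, genotype, age or sex is given in the labels used here. Counts of each tendon were fitted with a mean of their own, and the mean of Supraspinatus and Patellar was set against the mean of Flexor and Achilles. A gene was said to separate the positions when it passed this test at an adjusted p below 0.05 and its lowest level at one position lay above its highest level at the other. Of 23754 genes tested, 1016 did so, 573 higher and 443 lower in the proximal tendons.

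A limb is laid out from shoulder or hip to digits by transcription factors that start in the embryo and are partly kept in adult connective tissue. Hox genes with low numbers are read out nearer the trunk, and those of the Hoxa and Hoxd clusters with the highest numbers mark the forearm, hand and foot. Tendon cells depend on the factor Scleraxis, and their matrix is mainly type I collagen with small leucine-rich proteoglycans. Secreted antagonists of BMP and Wnt signals shape tendons, joints and digits during development.

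Total counts per library were 86898889 to 107805065 in Supraspinatus and 34559686 to 63235636 in Patellar, against 97242489 to 106573353 in Flexor and 84414005 to 97180849 in Achilles. The Patellar libraries stood apart. Genes with rRNA-like sequence took 13.2% to 42.0% of their counts, against 1.86% to 4.91% in the other 12 libraries, and skeletal muscle markers took less than in any other tendon. The first principal component held 40.4% of the variance and did not separate the positions. The second held 18.6% and did. Among the first 8 components it was the only one that did. On it, Supraspinatus libraries lay at 85.5 to 102.9 and Patellar libraries at 9.23, -23.25, 74.9 and 9.52. Flexor libraries lay at -57.98 to -40.78 and Achilles libraries at -70.26 to -56.29.

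The tissue labels were checked against limb factors before position was read. Pitx1, a hindlimb transcription factor, was at 12.3 ± 1.87 CPM in Supraspinatus and 60.97 ± 15.7 CPM in Patellar, against 0.226 ± 0.0863 CPM in Flexor and 19.3 ± 8.27 CPM in Achilles (SD, n = 4 each). Tbx5, the forelimb factor, was at 20.3 ± 2.45 CPM in Supraspinatus and 7.88 ± 0.961 CPM in Patellar, against 50.8 ± 5.31 CPM in Flexor and 0.315 ± 0.151 CPM in Achilles. Supraspinatus, a forelimb tendon, thus held Pitx1 reads, and Patellar, a hindlimb tendon, held Tbx5 reads. Hoxc10, another hindlimb gene, was at 0.0757, 0, 0.305 and 0.0342 CPM in Supraspinatus and 34.2, 23.8, 19.7 and 28.6 CPM in Patellar libraries, against 0.0483, 0.02001, 0.0535 and 0.0441 CPM in Flexor and 13.1, 14.3, 18.9 and 13.8 CPM in Achilles libraries. This gene followed the labelled limb in all 16 libraries. The Scleraxis gene Scx and the other tendon genes described below were detected in all 4 tendons.

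In the mean contrast, 3653 genes (15.4% of those tested) were higher in proximal tendons and 4645 (19.6%) were lower (edgeR quasi-likelihood test, Benjamini-Hochberg adjusted over all genes). Such a mean can rest on 1 tendon, and 2028 of these 8298 genes (24.4%) had opposite signs in the forelimb and the hindlimb. Within the forelimb, Supraspinatus and Flexor differed in 6441 genes (27.1%), 3492 higher (14.7%) and 2949 lower (12.4%). Within the hindlimb, Patellar and Achilles differed in 9131 genes (38.4%), 4130 higher (17.4%) and 5001 lower (21.1%). Separation of the libraries was narrower, at 2.41% of genes tested for higher and 1.86% for lower genes. A further count took genes that passed in 1 direction in each of the 4 contrasts of a proximal with a distal tendon. It held 643 higher genes (2.71%) and 487 lower ones (2.05%), 1130 in all (4.76%), and 786 genes met both criteria, which is 77.4% of the separating genes and 69.6% of the genes that passed all 4 contrasts. The separating genes had a median log2 fold change of 1.16 where higher and -1.67 where lower, against -0.06 over all genes tested. A change of at least 4-fold was seen in 76 of the higher and 188 of the lower separating genes.

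Only 2 tendons stand for each position, so an exact test with tendons as units could not go below p = 0.333, and position cannot be told apart from anything else that differs between these tendons. The p-values of the fits rest on the spread between libraries of a tendon. Those of the permutation tests of marker shares below rest on exchanging libraries between the tendons of a limb. Neither kind treats tendons as units. Just inside the criterion lay Igfbp6, with a proximal minimum of 1006 CPM and a distal maximum of 998 CPM, and Cdh19, with a proximal maximum of 5.49 CPM and a distal minimum of 5.52 CPM. Just outside it lay Rxrb, with a proximal minimum of 25.4 CPM and a distal maximum of 26.3 CPM, and Cry2, with a proximal maximum of 178 CPM and a distal minimum of 174 CPM. Levels below are TMM-scaled CPM, the count of a gene divided by the scaled library total, and a fold change is a log2 value, proximal minus distal, with its standard error.

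**Figure D1:**
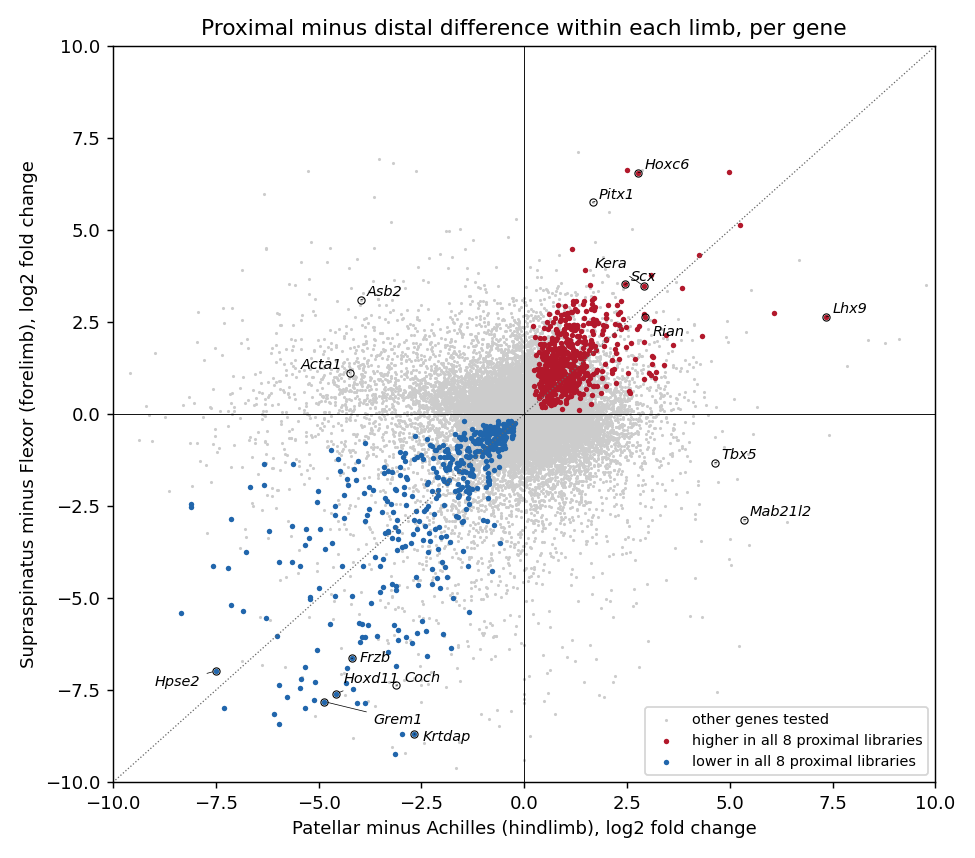
Each point is 1 of 23754 genes, with the Patellar minus Achilles log2 fold change on the x axis and the Supraspinatus minus Flexor log2 fold change on the y axis. The 573 genes higher in all 8 proximal libraries (red) and the 443 lower in all 8 (blue) fall in 2 opposite quadrants as their selection requires, while Tbx5, Mab21l2, Asb2 and Acta1 had opposite signs in the limbs.

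The Hox genes split by number. Counts of members here and in the lists below stand against 15.4% of all genes tested that were higher and 19.6% that were lower. Of 23 tested genes numbered 2 to 9, 19 were higher in proximal tendons, 1 was lower (Hoxb9, picked out after its value was seen, at -1.96 ± 0.43) and 3 did not pass (Hoxa4, Hoxb7 and Hoxd9), with a median log2 fold change of 2.17. Of 7 tested genes numbered 11 to 13, 0 were higher, 6 were lower and 1 did not pass (Hoxc13), with a median of -4.19. Not all of these differences were shared by the limbs, as Hoxd12 and Hoxc11, picked out after their values were seen, show. Hoxd12, whose value is that median, was at 2.73 CPM in Flexor and 0.00684 CPM in Achilles. Hoxc11 was at 3.14 CPM in Achilles and 0.00483 CPM in Flexor. The tested Hoxd genes had a median of -4.27 in the forelimb and -0.31 in the hindlimb. Of the 3 genes numbered 10, Hoxd10 was lower and Hoxa10 and Hoxc10 did not pass.

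Hoxc6 (ENSMUSG00000001661, chromosome 15, 102998257 to 103011881 on mm10) had the largest difference among the Hox genes that were higher in proximal tendons. It was at 5.51, 4.71, 5.39 and 4.35 CPM in Supraspinatus and 16.3, 15, 19.02 and 13.99 CPM in Patellar libraries, against 0.05802, 0.07004, 0.0446 and 0.0353 CPM in Flexor and 2.401, 1.93, 2.36 and 2.71 CPM in Achilles libraries, a difference of 4.67 ± 0.15, adjusted p = 3.5e-11. Both proximal tendons lay above both distal ones, yet the gap was wider in the forelimb (6.56 in the forelimb and 2.77 in the hindlimb; interaction 3.78 ± 0.29, adjusted p = 3.9e-07). Its neighbour Hoxc5 was at 6.38 ± 1.88 CPM in Supraspinatus and 10.8 ± 1.92 CPM in Patellar, against 0.06402 ± 0.0326 CPM in Flexor and 1.91 ± 0.254 CPM in Achilles and differed by 4.56 ± 0.21, adjusted p = 3.2e-09. Hoxa5 differed by 2.19 ± 0.24 and Hoxa3 by 1.29 ± 0.17, and both separated the libraries with like differences in the limbs (2.39 in the forelimb and 1.99 in the hindlimb for Hoxa5, 1.25 in the forelimb and 1.32 in the hindlimb for Hoxa3). Hoxc8, in contrast, differed by 3.16 ± 0.23 in the mean but was at 0.148 ± 0.0724 CPM in Supraspinatus and 33.4 ± 5.58 CPM in Patellar, against 0.02303 ± 0.0113 CPM in Flexor and 2.47 ± 0.236 CPM in Achilles, so Achilles lay above Supraspinatus and the libraries overlapped.

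On the distal side, Hoxd11 (ENSMUSG00000042499, chromosome 2, 74679557 to 74687016) was at 0.0324, 0.0393, 0.257 and 0.0228 CPM in Supraspinatus and 0.0459, 0.01302, 0.0694 and 0.188 CPM in Patellar libraries, against 15.6, 17.7, 15.7 and 19.4 CPM in Flexor and 1.65, 2.75, 0.899 and 1.44 CPM in Achilles libraries. The proximal libraries were all below the lowest Achilles library, and the difference was -6.09 ± 0.47, adjusted p = 1.8e-07. It was larger in the forelimb than in the hindlimb (-7.60 in the forelimb and -4.58 in the hindlimb; interaction -3.02 ± 1.04, adjusted p = 0.035). Hoxa13 (ENSMUSG00000038203, chromosome 6, 52257694 to 52260880), which marks the hand and foot in the embryo, was at 0.122 ± 0.129 CPM in Supraspinatus and 0.0619 ± 0.0411 CPM in Patellar, against 6.42 ± 0.637 CPM in Flexor and 0.989 ± 0.0485 CPM in Achilles and differed by -4.76 ± 0.38, adjusted p = 2.1e-07. Hoxa11 was at 0.225 ± 0.114 CPM in Supraspinatus and 1.07 ± 0.581 CPM in Patellar, against 6.102 ± 0.526 CPM in Flexor and 9.03 ± 3.33 CPM in Achilles, a difference of -3.94 ± 0.33, adjusted p = 3.7e-07. Hoxa11os, a transcript that overlaps Hoxa11 on the opposite strand, differed by -4.47 ± 0.39, and because it is not stated whether counting used strand, reads of the pair cannot be told apart. Hoxd10 differed by -2.53 ± 0.24 in the mean, with -4.27 in the forelimb and -0.79 in the hindlimb. Hoxd13, the most posterior gene of its cluster, was at 0.127 ± 0.116 CPM in Supraspinatus and 0.0154 ± 0.0181 CPM in Patellar, against 8.68 ± 1.25 CPM in Flexor and 0.104 ± 0.0937 CPM in Achilles. Its mean difference of -4.58 ± 0.65 rested on Flexor, and Achilles overlapped the proximal libraries.

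**Figure D2:**
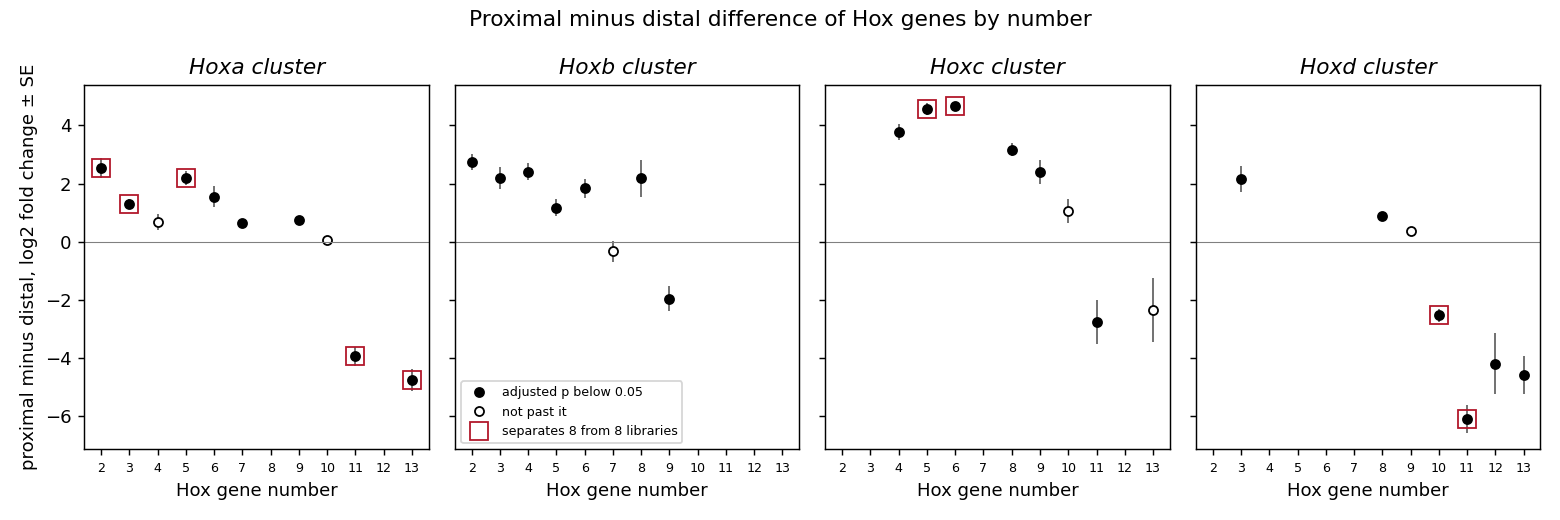
Proximal minus distal log2 fold change with its standard error (y axis) for tested Hox genes numbered 2 to 13, by number within the cluster (x axis). Genes numbered 2 to 9 lie mostly above 0 and genes numbered 11 to 13 below 0, and red squares mark the 5 higher and 4 lower Hox genes that separated the libraries.

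Other patterning factors divided along the same axis. Lhx9 (ENSMUSG00000019230, chromosome 1, 138825186 to 138848577), a LIM homeobox factor of the limb bud, was at 2.62, 2.19, 4.89 and 1.58 CPM in Supraspinatus and 15.99, 12.9, 14.4 and 25.6 CPM in Patellar libraries, against 0.319, 0.981, 0.214 and 0.2997 CPM in Flexor and 0.1, 0.109, 0.0799 and 0.128 CPM in Achilles libraries. All 8 proximal libraries lay above all distal ones, and the difference of 4.99 ± 0.36, adjusted p = 1.1e-07 was larger in the hindlimb (2.64 in the forelimb and 7.34 in the hindlimb; interaction -4.71 ± 0.66, adjusted p = 5.9e-05). Gsc (ENSMUSG00000021095, chromosome 12, 104471209 to 104473330), which codes for the homeobox factor goosecoid, was at 4.18 ± 1.08 CPM in Supraspinatus and 11.8 ± 1.44 CPM in Patellar, against 0.303 ± 0.0854 CPM in Flexor and 1.39 ± 0.346 CPM in Achilles, a difference of 3.43 ± 0.19, adjusted p = 1.4e-08. Emx2, a homeobox gene needed for the shoulder blade, differed by 2.17 ± 0.22 and Pbx3, a partner of Hox proteins, by 1.24 ± 0.17. The homeobox gene Shox2, needed for the upper limb segment, differed by 2.32 ± 0.13, but Achilles at 10.5 ± 1.98 CPM lay above Supraspinatus at 5.92 ± 0.448 CPM. Meis1 and Meis2, markers of the proximal limb bud, differed by 1.13 ± 0.15 and 2.35 ± 0.24 in the mean without separating the libraries.

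Hand2 (ENSMUSG00000038193, chromosome 8, 57320983 to 57324633), a basic helix-loop-helix factor of the posterior limb bud, went the other way. It was at 0.0541, 0.157, 0.366 and 0.148 CPM in Supraspinatus and 0.0689, 0.01302, 0.104 and 0.0807 CPM in Patellar libraries, against 4.49, 5.82, 5.22 and 8.21 CPM in Flexor and 2.38, 3.38, 1.39 and 1.63 CPM in Achilles libraries. The highest proximal library stood below the lowest distal one, and the difference of -5.12 ± 0.40, adjusted p = 1.7e-07 was alike in the limbs (-5.03 in the forelimb and -5.21 in the hindlimb). Lmx1b (ENSMUSG00000038765, chromosome 2, 33560965 to 33640511), a LIM homeobox factor that sets the dorsal side of the limb, was singled out from the distal limb list after its values were seen. It was at 1.31, 1.06, 1.14 and 1.799 CPM in Supraspinatus and 6.96, 3.94, 2.33 and 3.55 CPM in Patellar libraries, against 0.02901, 0.1101, 0.0357 and 0.0881 CPM in Flexor and 0.04002, 0.248, 0.429 and 0.164 CPM in Achilles libraries. All 8 proximal libraries were above all 8 distal ones, with a difference of 4.28 ± 0.41, adjusted p = 1.3e-06 that was alike in the limbs (4.31 in the forelimb and 4.25 in the hindlimb). The patellar tendon serves an extensor muscle of the dorsal limb, and the forepaw flexor and Achilles tendons serve flexors of the ventral limb. Proximal position and dorsal side thus cannot be told apart among these tendons. No side is stated here for the supraspinatus tendon.

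In the list of proximal limb regulators, of 13 tested, 9 were higher, 1 lower and 3 did not pass, with a median log2 fold change of 0.63. That median was 1.15 in the forelimb and 0.26 in the hindlimb, and 2 of the members separated the libraries. In the list of distal limb regulators, of 18 tested among 22 listed, 2 were higher, 12 lower and 4 did not pass, with a median log2 fold change of -3.70. The 2 members of the distal list that were higher in proximal tendons were Lhx9 and Lmx1b, and both separated the libraries. Dlx5 and Msx2, homeobox genes of the limb bud tip and of bone, were also picked out after their values were seen. Dlx5 was at 0.786 ± 0.442 CPM in Supraspinatus and 0.241 ± 0.198 CPM in Patellar, against 9.23 ± 4.21 CPM in Flexor and 9.56 ± 5.71 CPM in Achilles and separated the libraries (-4.45 ± 0.42, adjusted p = 1.1e-06), while Msx2 was at 0.436 ± 0.1896 CPM in Supraspinatus and 0.367 ± 0.388 CPM in Patellar, against 7.72 ± 3.09 CPM in Flexor and 8.75 ± 7.26 CPM in Achilles (-4.41 ± 0.56, adjusted p = 2.1e-05) and overlapped through 1 Achilles library. Sall1, a zinc finger gene of the hand and foot, was picked out in the same way. It was at 0 in all Patellar libraries and at 0.0216, 0, 0 and 0.0114 CPM in Supraspinatus, against 2.33, 2.48, 1.48 and 4.03 CPM in Flexor and 0.09004, 0.387, 0.1099 and 0.328 CPM in Achilles libraries. The 4 limb identity factors split evenly, with Tbx4 at -0.93 ± 0.19 and none separating. Tbx4 did not pass with muscle markers as a covariate (adjusted p = 0.0705), and with limb as an additive term neither Tbx4 (adjusted p = 0.149) nor Tbx5 (adjusted p = 0.334) did.

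Of the antagonists of BMP and Wnt signals described here, Grem1, Frzb, Sfrp5 and Sostdc1 were lower in proximal tendons, and Nbl1, given with the matrix genes, was higher. Grem1 (ENSMUSG00000074934, chromosome 2, 113746164 to 113758646), which codes for the BMP antagonist gremlin, was at 0.0757, 0.131, 0.318 and 0.159 CPM in Supraspinatus and 0.322, 0.0781, 0.104 and 0.108 CPM in Patellar libraries, against 17.2, 13.8, 8.44 and 114 CPM in Flexor and 2.84, 4.88, 4.24 and 5.58 CPM in Achilles libraries. Every distal library exceeded every proximal one (difference -6.34 ± 0.61, adjusted p = 1.2e-06), although Flexor replicate 4 was far above the other 3. Without that library the difference was -5.54 (adjusted p = 1.6e-07). Frzb (ENSMUSG00000027004, chromosome 2, 80411970 to 80447625), a secreted Wnt antagonist first found in cartilage, was at 1.37, 1.401, 1.22 and 2.02 CPM in Supraspinatus and 2.09, 1.09, 7.85 and 3.23 CPM in Patellar libraries, against 97.7, 126, 96.5 and 278 CPM in Flexor and 55, 73.5, 53.2 and 71.6 CPM in Achilles libraries, a difference of -5.41 ± 0.38, adjusted p = 8.9e-08. Sfrp5, another secreted Wnt antagonist, differed by -4.07 ± 0.33, and Sostdc1, which binds BMPs and the Wnt coreceptor, by -4.89 ± 0.52. The Wnt coreceptor gene Lrp6 went the other way, at 68.1 to 96.6 CPM (median 84.98) in proximal libraries, against 45.6 to 54.04 CPM (median 47.8) in distal libraries, a difference of 0.77 ± 0.07.

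Within the whole list of Wnt ligands, receptors and modulators, of 43 tested among 45 listed, 10 were higher, 10 lower and 23 did not pass, with a median log2 fold change of 0.08. For BMP and GDF ligands, receptors and antagonists, of 33 tested, 12 were higher, 7 lower and 14 did not pass, with a median log2 fold change of 0.01. For comparison, 15.4% of all genes tested were higher and 19.6% lower. Smad6 and Smad7, intracellular inhibitors of BMP and TGF-beta signals, both separated the libraries on the higher side, at 1.56 ± 0.14 and 1.22 ± 0.12. Bmp1, a protease that trims procollagen, differed by 1.99 ± 0.18.

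FGF genes differed in both directions, as did all genes tested (15.4% higher and 19.6% lower). Fgf9 (ENSMUSG00000021974, chromosome 14, 58070547 to 58112720), a ligand active in the limb and its cartilage, was at 40.5, 32.6, 33.3 and 32.3 CPM in Supraspinatus and 58.5, 39.01, 28.3 and 109.6 CPM in Patellar libraries, against 9.22, 9.91, 8.59 and 8.21 CPM in Flexor and 6.14, 10.9, 5.98 and 8.23 CPM in Achilles libraries. The lowest proximal library was above the highest distal one, and the difference was 2.43 ± 0.23, adjusted p = 1.0e-06. Fgf18, a ligand that acts on cartilage, was at 5.86 ± 1.73 CPM in Supraspinatus and 7.85 ± 3.201 CPM in Patellar, against 1.58 ± 0.122 CPM in Flexor and 1.62 ± 0.432 CPM in Achilles and differed by 2.08 ± 0.22. Fgf7, made by connective tissue for epithelium, was at 2.88 to 25.7 CPM (median 12.9) in proximal libraries, against 26.8 to 45.4 CPM (median 37.4) in distal libraries and differed by -1.60 ± 0.22. Fgf1 differed by -1.55 ± 0.25, with -0.86 in the forelimb and -2.24 in the hindlimb. In the FGF list, of 19 tested among 20 listed, 5 were higher, 8 lower and 6 did not pass, with a median log2 fold change of -0.19.

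The growth factor binding genes also split. The IGF-binding protein gene Igfbp7 was at 486 to 1106 CPM (median 643) in proximal libraries, against 90.8 to 224 CPM (median 121) in distal libraries, a difference of 2.30 ± 0.17, adjusted p = 1.1e-07. Igfbp6 differed by 1.23 ± 0.20, a gap seen mainly in the hindlimb (0.59 in the forelimb and 1.87 in the hindlimb; interaction -1.28 ± 0.40, adjusted p = 0.02). Igfbp2 was at 0.0831 ± 0.0312 CPM in Supraspinatus and 0.146 ± 0.133 CPM in Patellar, against 5.61 ± 4.32 CPM in Flexor and 1.18 ± 0.728 CPM in Achilles, a difference of -4.46 ± 0.51. In the IGF list, of 12 tested among 13 listed, 4 were higher, 3 lower and 5 did not pass, with a median log2 fold change of 0.25. Over all genes tested, 15.4% were higher and 19.6% lower. Gas1, a coreceptor for hedgehog proteins, differed by 1.51 ± 0.18 and separated the libraries. The guidance genes Ntn1 (netrin, 1.04 ± 0.13), Efna2 (ephrin A2, 2.61 ± 0.32) and Epha7 (an ephrin receptor, 1.38 ± 0.18) did so as well, and in the axon guidance list of 36 tested among 37 listed, 13 were higher, 8 lower and 15 did not pass, with a median log2 fold change of 0.06.

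To show the regulatory sequence beside these genes, the 250 bases before the RefSeq start are printed for a pair of higher genes (Kera, described with the matrix genes below, and Fgf9) and a pair of lower genes (Grem1 and Hand2). For Kera and Fgf9 that start lies inside the GENCODE gene whose coordinates are given with the values. They are RefSeq promoters on GRCm38.p6 and read 5′ to 3′ on the strand of the gene. Capitals mark the letters CANNTG, the E-box bound by basic helix-loop-helix factors such as Scleraxis and Hand2, which reads the same on both strands, and TAAT or its complement ATTA, a core bound by homeodomain factors such as the Hox proteins. TAAT and ATTA can overlap each other and were then both counted, while neither can overlap an E-box.
Kera chr10:97606955-97607204, plus strand: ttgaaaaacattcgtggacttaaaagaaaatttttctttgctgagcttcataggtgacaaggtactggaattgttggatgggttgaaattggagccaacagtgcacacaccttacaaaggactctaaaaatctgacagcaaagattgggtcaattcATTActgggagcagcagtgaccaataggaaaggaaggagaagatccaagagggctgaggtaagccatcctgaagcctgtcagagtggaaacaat
Fgf9 chr14:58072436-58072685, plus strand: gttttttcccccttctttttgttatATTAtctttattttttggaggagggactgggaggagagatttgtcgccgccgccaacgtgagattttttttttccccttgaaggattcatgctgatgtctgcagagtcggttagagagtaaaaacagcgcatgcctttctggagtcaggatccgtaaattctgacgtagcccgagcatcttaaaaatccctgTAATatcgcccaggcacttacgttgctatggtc
Grem1 chr2:113758649-113758898, minus strand: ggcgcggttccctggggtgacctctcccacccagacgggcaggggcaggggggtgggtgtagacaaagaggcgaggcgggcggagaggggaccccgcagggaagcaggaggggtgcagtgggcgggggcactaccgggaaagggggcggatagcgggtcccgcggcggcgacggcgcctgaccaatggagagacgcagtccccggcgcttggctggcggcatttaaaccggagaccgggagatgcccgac
Hand2 chr8:57320733-57320982, plus strand: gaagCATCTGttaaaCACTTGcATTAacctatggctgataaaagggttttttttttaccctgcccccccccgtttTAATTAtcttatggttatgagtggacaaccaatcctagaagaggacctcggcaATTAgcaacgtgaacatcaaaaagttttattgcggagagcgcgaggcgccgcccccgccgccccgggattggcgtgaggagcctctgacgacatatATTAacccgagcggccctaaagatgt

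Hand2 held 2 E-boxes and 5 TAAT or ATTA cores in this window, Fgf9 held 0 and 2, Kera 0 and 1, and Grem1 held none of either. Among separating genes with a promoter in the table, an E-box was present in 54.6% (230 of 421) of the higher and 61.5% (187 of 304) of the lower genes, against 63.9% (8776 of 13724) of all genes tested and 69.3% of all promoters in the table. A TAAT or ATTA core was present in 32.5% (137 of 421) of the higher and 46.1% (140 of 304) of the lower genes, against 46.8% (6429 of 13724) of all genes tested and 58.5% of all promoters. The higher genes thus held both letter patterns less often than the genes tested, a difference that was not tested. Their transcripts had a median GC content of 51.7%, against 50.2% for the lower genes and 48.9% for all genes tested.

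Tendon genes were not uniformly higher or lower. Scx (ENSMUSG00000034161, chromosome 15, 76457452 to 76459458), which codes for Scleraxis, was at 44.7, 35.4, 51.6 and 93.5 CPM in Supraspinatus and 128, 86.3, 88.6 and 107 CPM in Patellar libraries, against 6.09, 4.69, 3.49 and 5.33 CPM in Flexor and 22.6, 23.3, 11.9 and 17.3 CPM in Achilles libraries. Both proximal tendons lay above both distal ones, by 2.98 ± 0.21, adjusted p = 1.0e-07, and by more in the forelimb (3.52 in the forelimb and 2.45 in the hindlimb; interaction 1.07 ± 0.39, adjusted p = 0.044). Kera (ENSMUSG00000019932, chromosome 10, 97606879 to 97613692), which codes for the collagen-binding proteoglycan keratocan, was at 209, 83.3, 152 and 848 CPM in Supraspinatus and 334, 350.1, 223 and 372 CPM in Patellar libraries, against 38.1, 19.3, 35.1 and 23.6 CPM in Flexor and 33.5, 56.1, 19.1 and 61.05 CPM in Achilles libraries. Its difference was 3.19 ± 0.42, adjusted p = 2.5e-05, and Supraspinatus replicate 4 stood far above the other 3. Without it the difference was 2.63 (adjusted p = 4.8e-06). In bulk tissue, fewer cells of a type and less RNA per cell cannot be told apart, for these genes and for those below.

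Other genes of the tendon list went lower or did not separate. Chad, which codes for chondroadherin, a leucine-rich matrix protein shared with cartilage, was at 1019.6 to 2716 CPM (median 2062) in proximal libraries, against 2916 to 8516 CPM (median 3987) in distal libraries, a difference of -1.25 ± 0.23, adjusted p = 5.6e-04. Egr2, a zinc finger factor of tendon and of Schwann cells, differed by -2.21 ± 0.30. It is counted both in the tendon list and among the Schwann cell and nerve markers described below. Tnmd (tenomodulin, 0.71 ± 0.22), Fmod (fibromodulin, 0.93 ± 0.25) and Thbs4 (thrombospondin 4, 0.95 ± 0.29) were higher in the mean and Comp (cartilage oligomeric matrix protein, -0.76 ± 0.24) was lower, all with overlapping libraries. Without the 4 Patellar libraries, Tnmd at 0.22 and Fmod at 0.69 no longer passed (adjusted p = 0.519 and 0.0781), and without the 4 Supraspinatus libraries Comp at -0.53 did not (adjusted p = 0.169). Without Supraspinatus replicate 4, Tnmd at 0.53 and Thbs4 at 0.74 did not pass (adjusted p = 0.0517 and 0.051). With muscle markers as a covariate none of the 4 passed, at 0.81 for Tnmd, 0.99 for Fmod, 1.04 for Thbs4 and -0.61 for Comp (adjusted p = 0.107, 0.0742, 0.112 and 0.249), and Comp did not pass with limb as an additive term (adjusted p = 0.0588). The homeobox gene Mkx did not pass (0.44 ± 0.19, adjusted p = 0.08). Of the tenogenic list, of 21 tested among 22 listed, 9 were higher, 5 lower and 7 did not pass, with a median log2 fold change of 0.70.

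The main collagen did not separate the positions. Col1a1, the alpha 1 chain of type I collagen, was at 5046 ± 3558 CPM in Supraspinatus and 16111 ± 4145 CPM in Patellar, against 4636 ± 947 CPM in Flexor and 5716 ± 2378 CPM in Achilles and did not pass (0.81 ± 0.31, adjusted p = 0.05). Genes that process collagen passed in the mean in 1 direction only, and most did not separate the libraries. In the collagen processing and crosslinking list, of 21 tested, 10 were higher, 0 lower and 11 did not pass, with a median log2 fold change of 0.67, and the 2 that separated were Crtap and P3h4. The median of this list was 0.24 in the forelimb and 1.04 in the hindlimb. Crtap, which codes for a partner of the prolyl 3-hydroxylase, was at 40.8 to 87.3 CPM (median 66.4) in proximal libraries, against 10.998 to 34.7 CPM (median 16.4) in distal libraries, a difference of 1.67 ± 0.18, adjusted p = 4.6e-06. P3h4, a related endoplasmic reticulum protein that acts in collagen lysine modification, was at 56.7 to 95.1 CPM (median 72.5) in proximal libraries, against 16.8 to 43.6 CPM (median 24.3) in distal libraries, a difference of 1.46 ± 0.16, adjusted p = 6.1e-06. Timp2, an inhibitor of matrix metalloproteinases, was at 713 to 1727 CPM (median 995) in proximal libraries, against 195 to 516 CPM (median 228) in distal libraries and differed by 1.81 ± 0.18, adjusted p = 1.6e-06. The fibronectin domain gene Fndc1 (1.08 ± 0.23) and the BMP antagonist gene Nbl1 (1.24 ± 0.17) were higher as well, although Fndc1 no longer passed with muscle markers as a covariate (0.999, adjusted p = 0.0603). In the small leucine-rich proteoglycan list of 15 tested, 5 were higher, 1 lower and 9 did not pass, with a median log2 fold change of 0.08, and among collagens that do not form fibrils of 32 tested among 33 listed, 7 were higher, 14 lower and 11 did not pass, with a median log2 fold change of -0.67.

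**Figure D3:**
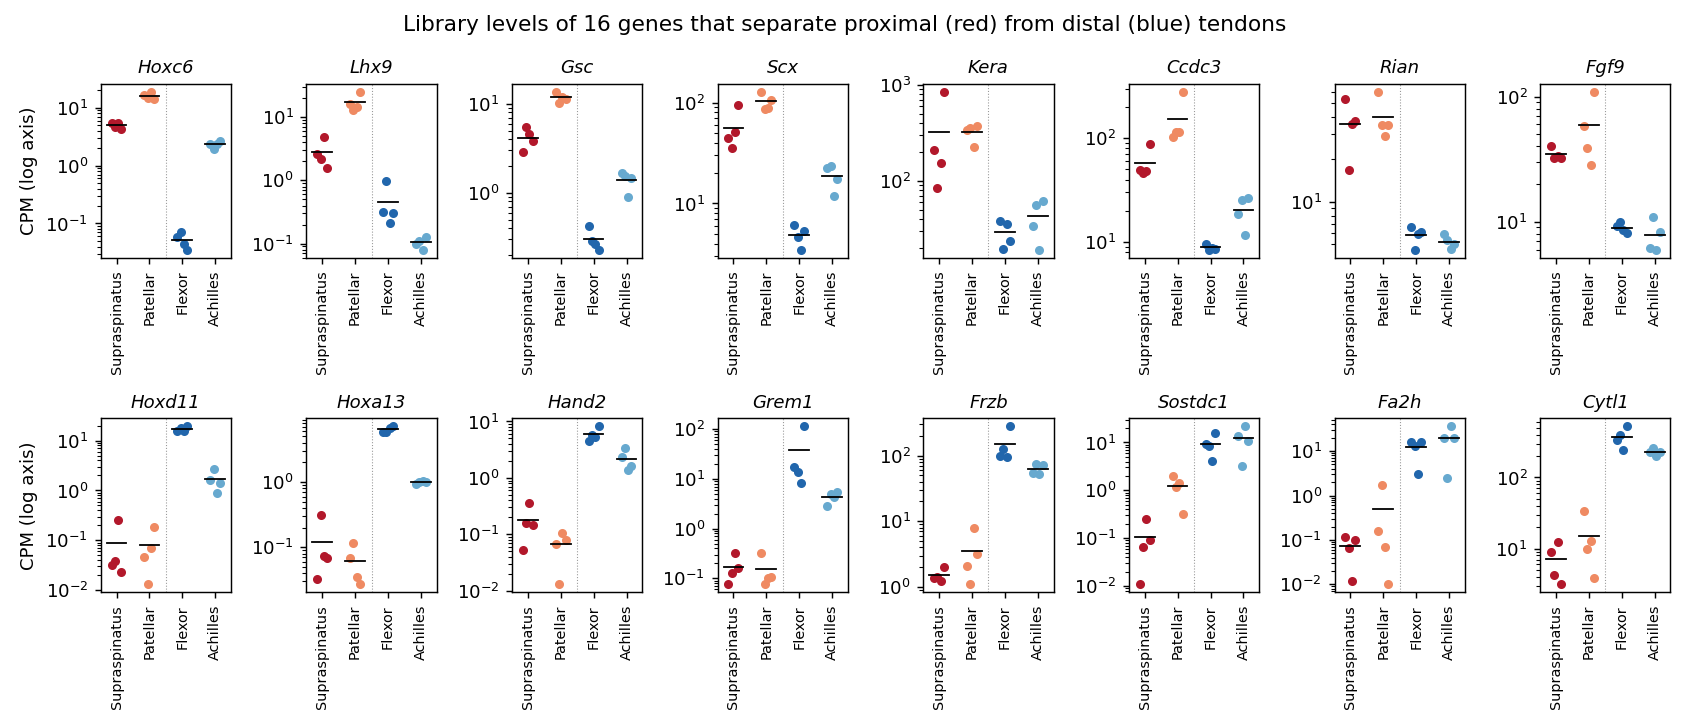
Level in CPM (log axis) in each library (points) of Supraspinatus and Patellar (red and orange) and of Flexor and Achilles (blues), with the tendon mean as a bar, for 16 separating genes. The upper 8 genes were higher in every proximal library and the lower 8 lower, and Supraspinatus replicate 4 for Kera and Flexor replicate 4 for Grem1 stood away from their groups; Patellar replicate 4, at 0 for Fa2h, is drawn at 0.01.

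Maternally expressed noncoding RNAs of the imprinted Dlk1-Dio3 region on chromosome 12 were higher together. Rian (ENSMUSG00000097451, chromosome 12, 109603940 to 109661716) was at 53.7, 16.7, 35.3 and 37.1 CPM in Supraspinatus and 60.4, 34.9, 29.02 and 35.1 CPM in Patellar libraries, against 6.59, 4.58, 5.91 and 6.07 CPM in Flexor and 5.87, 5.34, 4.64 and 5.05 CPM in Achilles libraries. The lowest proximal library was above the highest distal one, and the difference of 2.78 ± 0.21, adjusted p = 1.3e-07 was alike in the limbs (2.62 in the forelimb and 2.93 in the hindlimb). Mirg (ENSMUSG00000097391, chromosome 12, 109729764 to 109749460), which hosts microRNAs, was at 3.51 ± 1.04 CPM in Supraspinatus and 12.8 ± 4.38 CPM in Patellar, against 0.956 ± 0.253 CPM in Flexor and 1.03 ± 0.102 CPM in Achilles and differed by 2.75 ± 0.21, adjusted p = 1.3e-07. Meg3 (ENSMUSG00000021268, chromosome 12, 109541001 to 109571726), chosen after its values were seen, was at 216, 66.2, 138 and 163 CPM in Supraspinatus and 340.4, 238, 233 and 307 CPM in Patellar libraries, against 39.1, 34.61, 33.2 and 46.97 CPM in Flexor and 42.3, 55.6, 43.01 and 42.6 CPM in Achilles libraries, a difference of 2.26 ± 0.19, adjusted p = 3.2e-07. The protein-coding genes of the region, picked out in the same way, did not move as one. Rtl1 differed by 2.58 ± 0.35 (adjusted p = 3.1e-05) without separating, while Dlk1 (0.24 ± 0.38, adjusted p = 0.66) and Dio3 (-0.44 ± 0.47, adjusted p = 0.5) did not pass. Rtl1 has an antisense transcript, so its counts are uncertain.

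Further genes on the higher side had no common list. Ighm, the constant region of the IgM heavy chain, was at 205 ± 19.7 CPM in Supraspinatus and 56.3 ± 26.4 CPM in Patellar, against 9.14 ± 2.88 CPM in Flexor and 25.1 ± 9.28 CPM in Achilles, a difference of 2.83 ± 0.23, adjusted p = 2.7e-07, while lymphocyte markers did not follow it (of 11 tested among 15 listed, 0 were higher, 1 lower and 10 did not pass, with a median log2 fold change of -0.09). Ccdc3, a secreted protein gene, was at 46.5 to 283 CPM (median 96.3) in proximal libraries, against 8.405 to 26.3 CPM (median 10.6) in distal libraries and differed by 2.82 ± 0.24, adjusted p = 3.8e-07. Aqp5, a water channel gene, differed by 3.22 ± 0.31 and Aff2, a nuclear protein gene on chromosome X, by 2.79 ± 0.24. Both had the larger difference in the hindlimb (2.12 in the forelimb and 4.33 in the hindlimb for Aqp5; 2.14 in the forelimb and 3.44 in the hindlimb for Aff2). Rab2a, a vesicle transport GTPase gene, differed by 0.95 ± 0.09, with 1.59 in the forelimb and 0.30 in the hindlimb. Il33, which codes for an alarm cytokine, was higher by 1.77 ± 0.21 with overlapping libraries.

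Genes induced early after a stimulus were partly higher in proximal tendons. Jund, an AP-1 subunit gene, was at 26.7 to 79.3 CPM (median 43.9) in proximal libraries, against 6.39 to 13.46 CPM (median 7.95) in distal libraries and differed by 2.34 ± 0.15, adjusted p = 4.3e-08. Klf2, a zinc finger factor that responds to shear in endothelium, differed by 2.16 ± 0.16, Klf4 by 1.27 ± 0.14 and the chaperone gene Hsp90aa1 by 0.60 ± 0.08. All 4 separated the libraries. In the immediate-early and heat shock list of 30 tested, 9 were higher, 1 lower and 20 did not pass, with a median log2 fold change of 0.20. The shares over all genes tested were 15.4% higher and 19.6% lower. How long each dissection took is not given in the labels, and its part in these values was not tested.

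On the lower side, Hpse2 (ENSMUSG00000074852, chromosome 19, 42786539 to 43388355), which codes for heparanase 2, was at 0.0433, 0.0916, 0.0244 and 0.0683 CPM in Supraspinatus and 0.02297, 0, 0 and 0 CPM in Patellar libraries, against 9.36, 5.21, 9.67 and 4.91 CPM in Flexor and 1.24, 0.119, 2.91 and 0.702 CPM in Achilles libraries. It was near 0 in every Patellar library, and its difference of -7.24 ± 0.68, adjusted p = 1.0e-06 had the largest size among the genes the naming rule took by fold. Agbl1, a carboxypeptidase gene, was at 4.51 ± 1.86 CPM in Supraspinatus and 0.129 ± 0.0692 CPM in Patellar, against 60.7 ± 13.04 CPM in Flexor and 13.3 ± 4.196 CPM in Achilles and differed by -5.26 ± 0.26. Krt19, a keratin gene, differed by -4.59 ± 0.58. Cxcl12, a chemokine gene, was at 63.4 to 211 CPM (median 85.2) in proximal libraries, against 244 to 393 CPM (median 324) in distal libraries, a difference of -1.64 ± 0.20. Among abundant genes, the protease inhibitor genes Cst3 (-0.91 ± 0.16) and Serpine2 (-1.49 ± 0.15), the scavenger receptor gene Scara3 (-1.43 ± 0.16) and the matrix glycoprotein gene Sparcl1 (-2.07 ± 0.19) were lower and separated the libraries. Canx (calnexin) differed by -0.45 ± 0.10 and Hnrnpk, an RNA-binding protein gene, by -0.51 ± 0.07. Without the 4 Patellar libraries Canx was at -0.18 and no longer passed (adjusted p = 0.0915), nor did it with muscle markers as a covariate (-0.31, adjusted p = 0.148).

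Markers of several other cell types differed between the proximal and the distal tendons, among them those of nerve. Schwann cell and nerve markers took 0.0489% to 0.0548% of counts in Supraspinatus and 0.05795% to 0.103% in Patellar, against 0.223% to 0.612% in Flexor and 0.119% to 0.664% in Achilles (exact permutation p = 0.000408, adjusted p = 0.00204, over 15 lists). That p of 0.000408 is the smallest that 4900 relabellings within limbs can give. Each relabelling exchanged libraries between the tendons of a limb. A small p for a marker share thus sets these tendons apart and cannot test position, for which tendons would be the units. Of this list, of 20 tested, 0 were higher, 19 lower and 1 did not pass, with a median log2 fold change of -2.72. Mbp, which codes for myelin basic protein, was at 15, 15.1, 14.2 and 9.998 CPM in Supraspinatus and 105, 87.1, 88.7 and 51.4 CPM in Patellar libraries, against 747, 711, 358 and 1080.0 CPM in Flexor and 683, 122, 1459 and 700.1 CPM in Achilles libraries. The Supraspinatus libraries were lowest, and the difference of -4.45 ± 0.40, adjusted p = 5.9e-07 was larger in the forelimb (-5.74 in the forelimb and -3.16 in the hindlimb; interaction -2.58 ± 0.70, adjusted p = 0.0095). The calcium-binding protein gene S100b (-3.22 ± 0.28) and the cadherin gene Cdh19 (-4.05 ± 0.37) were lower too. Outside the list, Fa2h, which makes hydroxylated myelin lipids, differed by -6.18 ± 0.77, the myelin protein gene Pllp by -4.80 ± 0.53 and Kif1a, a motor of axonal transport, by -4.57 ± 0.46. These genes moved with the nerve markers, and the part of nerve in their difference was not tested.

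Cartilage and bone markers were also lower. Chondrocyte markers took 0.108% to 0.236% of counts in Supraspinatus and 0.223% to 0.4198% in Patellar, against 0.378% to 0.837% in Flexor and 0.3998% to 1.12% in Achilles (exact permutation p = 0.000816, adjusted p = 0.00245), with overlapping libraries. Of the list, of 20 tested among 21 listed, 2 were higher, 10 lower and 8 did not pass, with a median log2 fold change of -0.86, and the median was -2.18 in the forelimb and 0.02 in the hindlimb. Cytl1, a cartilage cytokine, was at 9.05, 4.29, 12.5 and 3.13 CPM in Supraspinatus and 33.5, 10.01, 12.8 and 3.85 CPM in Patellar libraries, against 334, 395, 245 and 525 CPM in Flexor and 231, 261, 202 and 231 CPM in Achilles libraries. All proximal libraries lay below all distal ones, by a difference of -4.82 ± 0.41, adjusted p = 3.9e-07. Col9a1, a chain of cartilage collagen IX, was at 0.153 ± 0.0964 CPM in Supraspinatus and 0.0872 ± 0.107 CPM in Patellar, against 18.01 ± 3.98 CPM in Flexor and 0.6503 ± 0.0784 CPM in Achilles and differed by -4.98 ± 0.40, and Hapln1, which links aggrecan to hyaluronan, differed by -2.63 ± 0.33. Chad is a member of this list as well as of the tendon list, so its counts enter the chondrocyte share. At the levels given with the tendon genes it stood far above Cytl1 and Col9a1, and a share without Chad was not computed. Frzb, Grem1 and Sostdc1 were lower in proximal tendons too. Grem1 differed by -7.81 in the forelimb and by -4.86 in the hindlimb, where the median of the chondrocyte list was 0.02. The part of cartilage in the differences of Frzb, Grem1 and Sostdc1 was not tested.

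Osteoblast and bone markers took 0.00532% to 0.00956% of counts in Supraspinatus and 0.0101% to 0.0299% in Patellar, against 0.0691% to 0.157% in Flexor and 0.154% to 0.36% in Achilles (exact permutation p = 0.000408, adjusted p = 0.00204), and the libraries separated. Of the list, of 12 tested among 15 listed, 2 were higher, 8 lower and 2 did not pass, with a median log2 fold change of -1.16. Spp1 (osteopontin) was at 19.4 ± 20.02 CPM in Supraspinatus and 93.2 ± 60.4 CPM in Patellar, against 993 ± 338 CPM in Flexor and 1505 ± 509 CPM in Achilles, a difference of -4.84 ± 0.45, adjusted p = 9.9e-07. Ibsp (bone sialoprotein) was at 0.472 ± 0.159 CPM in Supraspinatus and 25.5 ± 10.2 CPM in Patellar, against 4.11 ± 2.45 CPM in Flexor and 514 ± 238 CPM in Achilles. Its libraries did not separate, since Patellar lay above Flexor. Without the 4 Supraspinatus libraries Ibsp was at -0.84 and no longer passed (adjusted p = 0.0992). Spp1 made up most of the bone marker share in Flexor, and a share without Spp1 was not computed.

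Markers of the synovial lining and gliding surface took 0.329% to 0.4996% of counts in Supraspinatus and 0.245% to 0.491% in Patellar, against 0.749% to 1.13% in Flexor and 0.783% to 1.58% in Achilles (exact permutation p = 0.000408, adjusted p = 0.00204), and the libraries separated. Of the list, of 12 tested, 2 were higher, 7 lower and 3 did not pass, with a median log2 fold change of -0.87, and the median was -0.01 in the forelimb and -0.84 in the hindlimb. Prg4, which codes for the joint lubricant lubricin, was at 756 to 2062 CPM (median 1212) in proximal libraries, against 1752 to 3946 CPM (median 2301) in distal libraries and differed by -1.07 ± 0.17. Clu (clusterin) was at 482 to 1186 CPM (median 978) in proximal libraries, against 2232 to 5896 CPM (median 3211) in distal libraries and differed by -1.90 ± 0.23. For pericytes and smooth muscle, of 16 tested, 0 were higher, 12 lower and 4 did not pass, with a median log2 fold change of -1.39, and the share was 0.406% to 0.508% of counts in Supraspinatus and 0.0966% to 0.165% in Patellar, against 0.502% to 0.697% in Flexor and 0.409% to 0.928% in Achilles (exact permutation p = 0.000816, adjusted p = 0.00245). These shares overlapped between the positions, and Des is counted both in this list and among the skeletal muscle markers. The median of the list was -0.64 in the forelimb and -1.83 in the hindlimb. Rgs5, a pericyte gene, differed by -1.49 ± 0.16 and Myocd, a smooth muscle cofactor, by -3.29 ± 0.35.

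**Figure D4:**
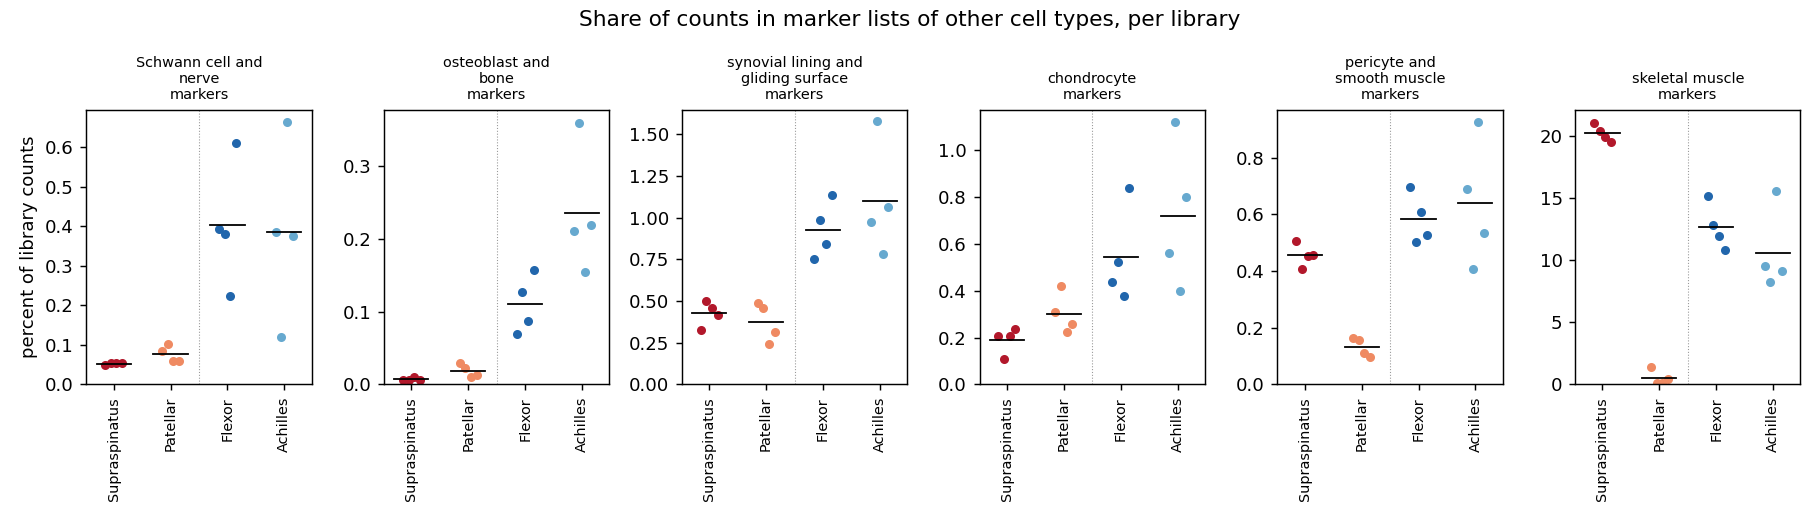
Percent of each library's counts (y axis) in 6 lists of markers of other cell types, with libraries as points and tendon means as bars. Nerve, bone and synovial shares were lower in all 8 proximal libraries than in any distal one, while the muscle share was highest in Supraspinatus and lowest in Patellar.

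Skeletal muscle followed the tendon and not the position. Its markers took 19.5% to 21.04% of counts in Supraspinatus and 0.105% to 1.42% in Patellar, against 10.8% to 15.2% in Flexor and 8.24% to 15.5% in Achilles (exact permutation p = 0.604, adjusted p = 0.823). Of the list, of 55 tested, 0 were higher, 45 lower and 10 did not pass, with a median log2 fold change of -1.74, and the median was 0.67 in the forelimb and -4.13 in the hindlimb. Acta1, skeletal actin, was at 41850.0 ± 1055 CPM in Supraspinatus and 1074 ± 1313 CPM in Patellar, against 19228 ± 3305 CPM in Flexor and 20326 ± 8188 CPM in Achilles and passed in the mean (-1.56 ± 0.46, adjusted p = 0.014) with opposite signs in the limbs. Only Myom3, a protein of the sarcomere's M band, at -3.67 ± 0.26, and Chrna1, a subunit of the acetylcholine receptor at the nerve ending, at -4.27 ± 0.49, separated the positions among the 55 markers tested. Genes of oxidative phosphorylation moved in the same way as muscle: of 45 tested among 46 listed, 0 were higher, 33 lower and 12 did not pass, with a median log2 fold change of -0.54, with 0.32 in the forelimb and -1.55 in the hindlimb and none separating.

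Shares of the remaining lists were smaller or did not pass. Endothelial markers took 0.0811% of proximal and 0.136% of distal counts (exact permutation p = 0.00408, adjusted p = 0.00875). Epidermis markers took 0.004996% of proximal and 0.0168% of distal counts (exact permutation p = 0.00286, adjusted p = 0.00714), with a difference of -0.022 percentage points in the forelimb and -0.0016 in the hindlimb, and the epidermal gene Krtdap differed by -5.68 ± 0.39 and separated the libraries. Red blood cell genes took 0.0414% of proximal and 0.0126% of distal counts (exact permutation p = 0.0131, adjusted p = 0.0245). Their difference was 0.0001 percentage points in the forelimb and 0.057 in the hindlimb, and without any 1 of the 4 Achilles libraries they no longer passed (adjusted p = 0.088 to 0.0926). Adipocyte, satellite cell, macrophage, mast cell, lymphocyte and neutrophil markers did not pass.

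**Figure D5:**
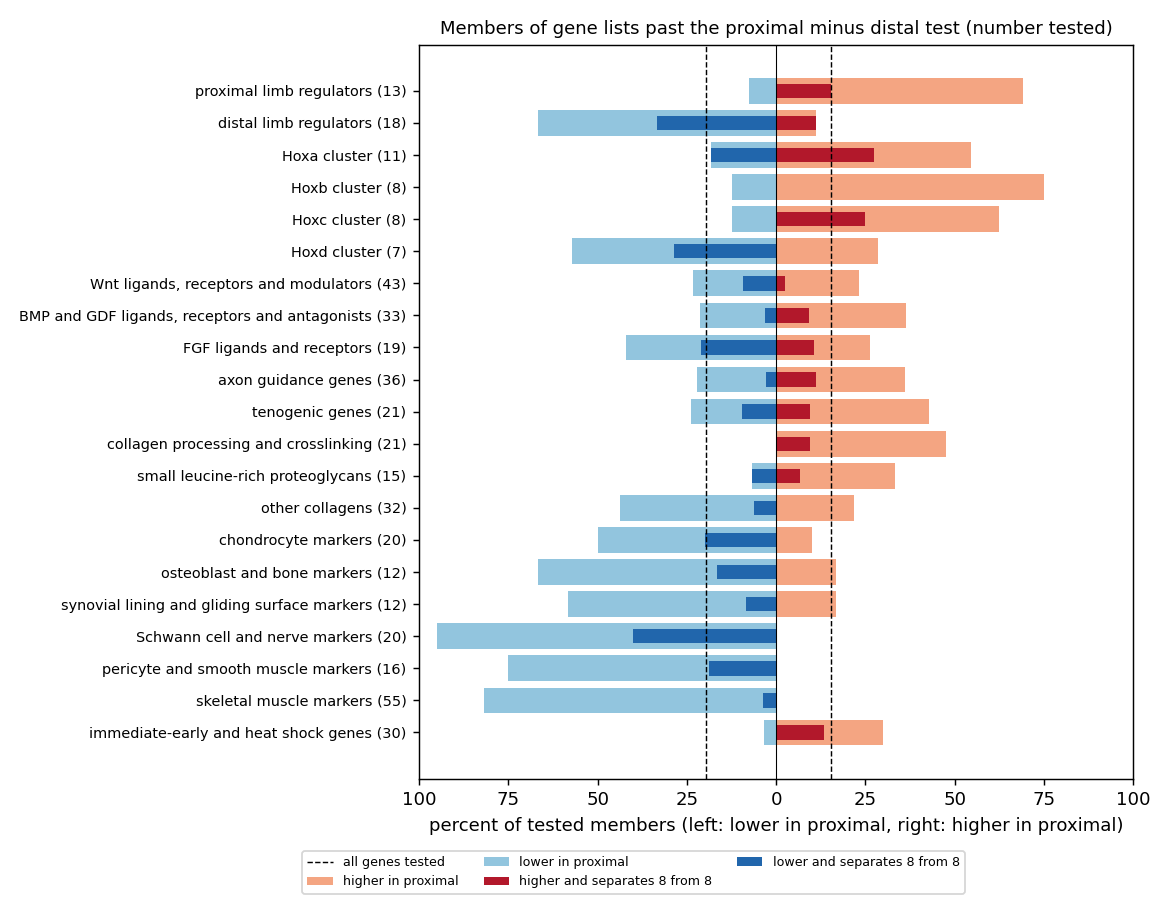
Percent of the tested members of each list (number tested in parentheses) that were higher (right) or lower (left) in proximal tendons, with the separating members in the inner dark bars and the percent of all genes tested as dashed lines at 15.4 and 19.6. Schwann cell and nerve markers had 19 of 20 members lower, and collagen processing genes had 10 of 21 higher and 0 lower.

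The difference between positions itself varied with the limb. The interaction, the forelimb difference minus the hindlimb difference, passed in 8149 genes (34.3% of those tested) and in 299 of the 1016 separating genes (29.4%). Coch, the gene of cochlin, a secreted matrix protein, was at 27.8 ± 17.9 CPM in Supraspinatus and 8.81 ± 2.15 CPM in Patellar, against 4591 ± 1281 CPM in Flexor and 75.8 ± 42.6 CPM in Achilles and had an interaction of -4.26 ± 0.68, adjusted p = 1.7e-04. Bmper, a regulator of BMP signals, had -4.43 in the forelimb and 1.27 in the hindlimb, and Mab21l2, a developmental regulator, had -2.87 in the forelimb and 5.34 in the hindlimb. The muscle genes Asb2 (3.11 in the forelimb and -3.97 in the hindlimb) and Asb15 (3.33 in the forelimb and -3.77 in the hindlimb) had the opposite pattern. For such genes the mean contrast gives no value shared by the limbs.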

How the data were processed

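RNA from 4 tendons of C57BL/6J mice was sequenced in 16 libraries, 4 per tendon. RNA extraction used small spin columns and a DNase step, per the labels' protocols. The authors deposited whole-number read counts for 41204 genes with no normalization. Per the submitters' processing notes, the tools were HISAT2, FastQC and edgeR and the genome build was mm10. Tool versions, read counter, strand setting and annotation are not given in the sources, so antisense, overlapping and near-identical genes are uncertain. The authors' own table of comparisons was not used.

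The counts were modelled with edgeR 4.0.16 under R 4.3.3. The filterByExpr filter, grouped by tendon, kept 23754 genes, and libraries were scaled by TMM. All 16 libraries entered a robust quasi-likelihood fit that gave each tendon a mean and held no covariate. The contrasts were proximal minus distal, each of the 4 proximal minus distal pairs, and the difference of the within-limb differences, each 2-sided with Benjamini-Hochberg adjustment over all genes and a threshold of 0.05. Standard errors were derived from the F statistic, as the size of the fold change over its root. For principal components, log2 CPM were taken at a prior count of 2. The percent of counts in 15 marker lists was compared by exact 2-sided permutation within limbs over 4900 relabellings, adjusted over the lists.

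The genes named are those that separate the positions at a mean of 2 CPM or more and have the largest fold (12 each way) or level (6 each way), up to 4 members per list in order of adjusted p, a panel of limb and tendon genes, and the 6 largest interactions each way. Unnamed and predicted genes, pseudogenes and markers were left out of the fold and level parts. The rule took 156 genes, of which the main ones are described, and results for some genes are not reported here. Tendon positions, the 43 gene lists and the members were chosen with earlier results of these data known. Gene positions came from GENCODE M21 (GRCm38, the assembly of mm10), and promoters from RefSeq on GRCm38.p6, with no entry for Scx or Hoxc6.

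Other settings were median-ratio size factors, DESeq2 1.42.0, voom from limma 3.58.1, no filter, a minimum mean CPM of 5, a block for the mouse number, muscle markers as a covariate, an additive limb term, rRNA-like and muscle genes left out, a 2-fold minimum and leaving out each library. Settings chosen after seeing the data left out the Patellar or the Supraspinatus libraries, added GC offsets, or thinned libraries to 1 total. The main edgeR fit was tested on simulated counts, and the other settings and the permutation test were not. Figures were drawn with matplotlib 3.10.9.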

Additional observations from a re-analysis of the deposited data

Results flagged for a closer look

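Among 512 checks of 4 libraries each (113 genes and 15 marker shares in 4 tendons), 46 had a highest or lowest library far from the other 3, a distance that chance gives in about 5% of checks.

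Supraspinatus replicate 1 was the highest library for Fgf9 (40.5 CPM). Supraspinatus replicate 2 was the highest library for Hoxa13 (0.314 CPM), Ntn1 (123 CPM), Dlx5 (1.44 CPM), the share of adipocyte markers (0.404%), the share of endothelial markers (0.0703%), the share of macrophage markers (0.204%) and the share of mast cell markers (0.0007998%). Supraspinatus replicate 2 was the lowest library for Chad (1020.0 CPM). Supraspinatus replicate 3 was the highest library for Hoxd11 (0.257 CPM), Serpine2 (501 CPM), Hapln1 (5.42 CPM) and Spp1 (49.3 CPM). Supraspinatus replicate 4 was the highest library for Kera (848 CPM), Ccdc3 (88.9 CPM), Timp2 (1166 CPM), Fndc1 (991 CPM), Bmp1 (169 CPM), Fgf18 (8.43 CPM), Crtap (87.3 CPM) and Cxcl12 (101.2 CPM).

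Patellar replicate 1 was the highest library for Hpse2 (0.02297 CPM), Grem1 (0.322 CPM), Prg4 (2062 CPM) and Chrna1 (2.504 CPM). Patellar replicate 2 was the highest library for Fa2h (1.75 CPM). Patellar replicate 4 was the highest library for Ccdc3 (283 CPM), Timp2 (1727 CPM), Nbl1 (676 CPM) and Smad6 (19.6 CPM).

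Flexor replicate 2 was the highest library for Lhx9 (0.981 CPM). Flexor replicate 3 was the highest library for Fgf18 (1.76 CPM). Flexor replicate 4 was the highest library for Grem1 (114 CPM), Frzb (278 CPM), Hoxa3 (1.199 CPM), Lrp6 (51.6 CPM) and Bmper (112 CPM). Flexor replicate 4 was the lowest library for Hoxa5 (0.679 CPM) and Ntn1 (41.6 CPM).

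Achilles replicate 2 was the highest library for Meg3 (55.6 CPM). Achilles replicate 3 was the highest library for Acta1 (32520.0 CPM). Achilles replicate 3 was the lowest library for Fndc1 (108.3 CPM), Pbx3 (2.47 CPM), Crtap (17.2 CPM) and Il33 (13.9 CPM). Achilles replicate 4 was the highest library for Hsp90aa1 (35.2 CPM).

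Of 113 named genes, 48 had a difference between positions that itself differed between limbs (edgeR quasi-likelihood test of the interaction, adjusted p below 0.05), given here as the forelimb minus the hindlimb log2 difference. Genes higher in proximal tendons with the larger difference in the forelimb were Hoxc6 (3.78), Hoxc5 (4.13), Scx (1.07), Ighm (3.32), Rab2a (1.29), Pitx1 (4.09), Shox2 (1.70), Meis1 (1.73), Meis2 (3.13), Smad6 (0.91) and Rxrb (1.16). Those higher with the larger difference in the hindlimb were Lhx9 (-4.71), Aqp5 (-2.21), Aff2 (-1.30), Mirg (-1.76), Igfbp6 (-1.28), Emx2 (-2.07), Epha7 (-1.23), Klf4 (-1.01), Hsp90aa1 (-0.54) and Rtl1 (-1.83). Genes lower in proximal tendons with the larger difference in the forelimb were Hoxd11 (-3.02), Frzb (-2.44), Sostdc1 (-3.15), Krt19 (-3.06), Hoxa11os (-3.47), Hoxa11 (-1.66), Hoxd10 (-3.47), Sfrp5 (-4.58), Igfbp2 (-3.19), Col9a1 (-3.73), Mbp (-2.58), S100b (-1.98), Cdh19 (-3.13), Krtdap (-6.01) and Coch (-4.26). Those lower with the larger difference in the hindlimb were Agbl1 (3.02), Fgf1 (1.38), Myom3 (1.84) and Rgs5 (1.17). The 8 with opposite signs in the limbs were Tbx5 (-5.96), Tbx4 (-2.84), Mkx (-1.46), Acta1 (5.36), Asb15 (7.10), Asb2 (7.08), Mab21l2 (-8.21) and Bmper (-5.70).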

How the results depend on the processing

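Counts of separating genes were stable under most settings. Of the 1016, 989 were found again with median-ratio size factors, 986 with DESeq2, 1016 with limma and voom, 900 with GC offsets and 763 after thinning. Separation is read from library levels, which the voom, replicate block, muscle covariate and additive limb settings leave unchanged. Those settings could change the count only through the test of the mean contrast. With a mean CPM of at least 5, 564 were found again, and lower separating genes numbered 229. Leaving out 1 library gave 547 to 657 higher and 455 to 626 lower separating genes.

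Counts that moved by over 1.5 times follow, and the cause was not tested unless the setting itself removes genes or libraries. Without the 4 Patellar libraries, 6002 genes were higher in the mean, and 3361 higher and 2313 lower genes separated. Without the 4 Supraspinatus libraries, 5594 were higher, and 2430 higher and 3430 lower genes separated. These settings set 4 proximal libraries against 8 distal ones. With a mean CPM of at least 5, the mean contrast had 2775 lower genes, all 4 pair contrasts 266 lower, the interaction 2880 higher and the hindlimb 2793 lower. With muscle markers as a covariate, the mean contrast had 3018 lower genes, the 4 pair contrasts 262 higher and 267 lower, the interaction 2284 higher and 1595 lower, and the hindlimb 1659 higher and 1884 lower. With an additive limb term 2538 genes were lower. With a 2-fold minimum, 1402 higher and 2147 lower genes passed in the mean, 359 higher genes separated, 196 higher genes passed all 4 pairs, the forelimb had 1971 higher and 1738 lower, and the hindlimb 2379 higher and 3012 lower. The additive limb term and the fits without a tendon gave no value for the pair contrasts or the interaction.

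The 83 named genes that separate kept their direction in the settings run. Their selection by library levels that do not overlap leaves little room for a reversal, so this is no separate support. Reversed values were, without the Patellar libraries, Hoxc8 -0.71, Hoxc10 -2.91, Mkx -0.30, Col1a1 -0.0002225, Acta1 1.12, Asb15 3.19, Asb2 2.61, Mab21l2 -1.85, Dlk1 -1.36 and Dio3 0.48. Without the Supraspinatus libraries, Tbx4 was 0.17. With the muscle covariate, Acta1 was 0.42, Asb15 1.26, Asb2 0.75 and Dlk1 -1.59. Col1a1, which just missed the threshold, passed in 9 other settings, among them DESeq2 at 0.83 (adjusted p = 0.0167).

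With mitochondrial, haemoglobin and rRNA-like genes left out of the total, the share of endothelial markers differed by -0.0412 percentage points and no longer passed, and the macrophage (0.0148) and lymphocyte (0.00023) shares reversed without passing. Leaving out 1 library gave differences of -0.289 to 0.201 for adipocyte, -0.0221 to 0.00356 for macrophage, -0.000461 to 7.04e-05 for lymphocyte, -3.12e-05 to 0.000249 for neutrophil and 0.0169 to 0.035 for red blood cell genes.

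Whether equal mouse numbers mark 1 animal is not given, and the correlations did not meet the rule for pairing. Deviations of 24 same-number pairs correlated at -0.135 to 0.255 (median 0.0165), 2 pairs were over 0.1, and 6 of 16 libraries correlated best with their own number. With the number as a replicate block, which leaves the library levels unchanged, 1016 genes separated, 1015 of them shared.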

Other observations

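Several further lists had both higher and lower members, where 15.4% of all genes tested were higher and 19.6% lower. In the retinoic acid list of 23 tested among 24 listed, 6 were higher, 4 lower and 13 did not pass, with a median log2 fold change of -0.11. In the hedgehog list of 12 tested among 13 listed, 3 were higher, 4 lower and 5 did not pass, with a median log2 fold change of -0.20, and in the TGF-beta list of 18 tested, 4 were higher, 4 lower and 10 did not pass, with a median log2 fold change of 0.07. For matrix proteases and their inhibitors, of 37 tested, 7 were higher, 7 lower and 23 did not pass, a share near that of all genes, with a median log2 fold change of -0.16, and among elastic fibre genes of 18 tested, 2 were higher, 2 lower and 14 did not pass, with a median log2 fold change of 0.01. For fibrillar collagens of 11 tested, 2 were higher, 1 lower and 8 did not pass, with a median log2 fold change of 0.53, with -0.27 in the forelimb and 1.26 in the hindlimb.

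Glycolysis genes, like muscle markers, had medians of opposite sign in the limbs. In the glycolysis list of 23 tested, 1 was higher, 16 lower and 6 did not pass, with a median log2 fold change of -0.66, with 0.28 in the forelimb and -1.36 in the hindlimb. Circadian clock genes were called at about the share of all genes (of 20 tested, 4 were higher, 5 lower and 11 did not pass, with a median log2 fold change of -0.03), and cytokines and chemokines were called in both directions (of 25 tested among 29 listed, 6 were higher, 3 lower and 16 did not pass, with a median log2 fold change of 0.10). Of satellite cell markers, of 10 tested, 0 were higher, 6 lower and 4 did not pass, with a median log2 fold change of -1.61, with 0.19 in the forelimb and -4.09 in the hindlimb. Of mast cell markers, of 11 tested, 0 were higher, 5 lower and 6 did not pass, with a median log2 fold change of -1.44, with -3.76 in the forelimb and 0.38 in the hindlimb, and of macrophage markers of 16 tested, 0 were higher, 1 lower and 15 did not pass, with a median log2 fold change of 0.05. Of the rRNA-like genes, of 7 tested, 7 were higher, 0 lower and 0 did not pass, with a median log2 fold change of 2.05.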
